A study of Mus musculus with 8 samples.

Results

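The subunit genes of respiratory complexes II, III, IV and V that are encoded in the nucleus were compared between CAPZ_KO and WT mouse liver. Members were taken by symbol alone, as every row of the count table named Sdha, Sdhb, Sdhc or Sdhd, or with a name that starts with Uqcr, with Cox4 to Cox8, or with Atp5. This gave 47 of 24421 symbols, with 4 in complex II, 8 in complex III, 18 in complex IV and 17 in complex V. The names Atp5s and Atp5sl follow the same pattern, but their proteins are not structural subunits of complex V. RNA of perfused liver was sequenced from C57BL/6N mice of 8 to 10 weeks of age as stranded poly(A) libraries, 4 for WT and 4 for CAPZ_KO. CAPZ_KO mice were Albumin-CreERT2;Capzb-fl/fl animals given tamoxifen from an age of 4 to 6 weeks, in which the albumin promoter drives Cre in hepatocytes and part of Capzb is removed. Capzb encodes one of the chains of capping protein, which closes the growing end of actin filaments. The WT group held Capzb-fl/fl animals that received tamoxifen and Albumin-CreERT2;Capzb-fl/fl animals that did not. Which kind of control each WT library came from is not labelled, so the joint exposure to Cre and tamoxifen cannot be told apart from the deletion. All animals of both groups carried floxed Capzb. Nothing in the labels says that replicates are separate animals, and p-values therefore measure only the spread between the libraries, which may be technical in part. Counts of Xist and of Y-linked genes, given with the last results, differ within each group and so come from at least 2 animals in each.

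The respiratory chain passes electrons from metabolites to oxygen in the inner mitochondrial membrane. Complex II, succinate dehydrogenase, is also an enzyme of the tricarboxylic acid cycle and feeds electrons from succinate to ubiquinone. Complex III passes them to cytochrome c, and complex IV, cytochrome c oxidase, passes them to oxygen. Complexes III and IV pump protons, and complex V, the ATP synthase, lets the protons flow back and makes ATP. Liver uses this ATP for gluconeogenesis, urea synthesis and secretion of plasma proteins. Complex II is encoded entirely in the nucleus. Complexes III and IV have core subunits, and complex V has subunits of its membrane part, that are encoded in mitochondrial DNA. The count table has no row under the symbols of these subunits, such as mt-Cytb, so they could not be compared.

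Total counts ranged from 12060350 to 18916315 per library. Capzb stood at 109 to 140 CPM (read counts scaled to library size with the TMM factors of edgeR) in the WT libraries and at 64.5 to 79.6 CPM in the CAPZ_KO libraries. The library WT 1 stood apart for the members, with the highest level of the WT group in 35 of the 42 members that passed the filter on low counts. Summed hepatocyte markers, 10 genes with Alb among them, ranged from 174562 to 230018 CPM in WT and from 44617 to 67008 CPM in CAPZ_KO, and 8 of the 10 were lower, where 19.0% of all tested genes were lower and 22.4% higher. Of the markers of other cells, 4 of 7 were higher for cholangiocytes, 6 of 8 for monocyte-derived macrophages, 3 of 6 for Kupffer cells, 7 of 8 for stellate cells and fibroblasts, and 2 of 6 for endothelial cells, with median log2 fold changes of 3.005, 2.43, 1.08, 2.07 and 0.28. The 7 markers of T, NK and B cells had adjusted p between 0.524 and 0.989 and a median of 0.01, and of the red cell precursor list the 1 gene tested, Alas2, was lower at −2.82. In bulk liver, fewer cells of a type and less RNA per cell cannot be told apart, and the part of this shift in the members' levels was not tested.

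Promoter sequence was not used to choose the members, and letters bound by known regulators of mitochondrial genes were counted in it. RefSeq promoters (GRCm38.p6, from 250 bases before to 50 bases after a start site) were found for 34 of the 47 members, 37 promoters in all. No enrichment test was run on them. On either strand, the letters CCGGAAG, which the GABP factor is known to bind, were present in 12 of the 37 promoters (32.4%) and in 8.86% of 32851 promoters of all genes. The letters GCATGCGC of nuclear respiratory factor 1 were present in 7 (18.9%) and in 2.71% of all promoters. The letters AAGGTCA of the estrogen-related receptors were present in 5 (13.5%, against 4.72%), AAGATGGC of YY1 in 2 (5.41%, against 2.75%), and GGGCGG of Sp1 in 12 (32.4%, against 35.7%). A match describes the letters only, and none of the letters searched contains another. A stretch is the longest run of such a window that lies outside annotated exons. Those printed lie before the gene, while some others, such as that of Atp5g2, lie inside it. The printed ones show 1 gene of each complex that holds such letters, followed by Cox6b2, the member that rose. The stretch of Cox6b2 holds none of them, and neither do those of 14 of the 26 members that fell and have such a stretch, so the choice shows no contrast between members that rose and fell. Each is printed 5′ to 3′ on the strand of its gene, which is the minus strand for all 5, and capitals mark matches in either direction. The stretch of Sdhd lies at chr9:50603813-50603909, that of Uqcr11 at chr10:80406831-80407071, that of Cox6a1 at chr5:115348982-115349129, that of Atp5e at chr2:174464106-174464351 and that of Cox6b2 at chr7:4753095-4753225.
Sdhd: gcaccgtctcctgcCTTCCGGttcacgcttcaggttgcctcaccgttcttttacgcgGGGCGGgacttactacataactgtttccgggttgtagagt
Uqcr11: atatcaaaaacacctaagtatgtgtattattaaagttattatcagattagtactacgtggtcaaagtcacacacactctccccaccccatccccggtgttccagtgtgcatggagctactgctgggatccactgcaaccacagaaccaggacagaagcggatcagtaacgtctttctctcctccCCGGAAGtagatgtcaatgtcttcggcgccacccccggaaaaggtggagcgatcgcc
Cox6a1: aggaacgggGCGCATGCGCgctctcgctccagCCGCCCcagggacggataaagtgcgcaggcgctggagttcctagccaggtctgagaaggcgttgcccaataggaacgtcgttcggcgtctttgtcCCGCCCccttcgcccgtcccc
Atp5e: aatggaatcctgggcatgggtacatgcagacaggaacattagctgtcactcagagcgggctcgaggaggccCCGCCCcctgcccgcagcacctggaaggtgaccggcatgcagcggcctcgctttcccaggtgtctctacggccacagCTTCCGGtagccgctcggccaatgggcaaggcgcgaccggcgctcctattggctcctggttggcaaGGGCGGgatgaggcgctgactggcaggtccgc
Cox6b2: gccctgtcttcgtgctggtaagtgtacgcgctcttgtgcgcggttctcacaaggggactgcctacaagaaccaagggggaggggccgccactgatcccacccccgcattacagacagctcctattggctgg
The Sdhd stretch holds CCGGAAG on the opposite strand and GGGCGG, the Uqcr11 stretch holds CCGGAAG, and the Atp5e stretch holds CCGGAAG on the opposite strand and GGGCGG on both. In Cox6a1, GCATGCGC occurs on both strands in overlapping positions, next to GGGCGG on the opposite strand. The GGGCGG of Cox6b2 lies in its window but outside the printed stretch.

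Of the 42 members that passed the filter on low counts, 36 fell in CAPZ_KO and 1 rose at an adjusted p under 0.05 (edgeR quasi-likelihood test, Benjamini-Hochberg adjustment over 12985 genes). Over all tested genes 19.0% were lower and 22.4% were higher. All 4 members of complex II and all 8 of complex III fell, with 9 of the 13 tested in complex IV and 15 of the 17 in complex V. The median log2 fold change was −0.85 in complex II, −0.82 in complex III, −0.61 in complex IV and −0.82 in complex V, and −0.76 over the 42 members, against −0.00 over all tested genes. Every CAPZ_KO library lay below every WT library in 37 members, which over all tested genes was so for 18.2%, and above in 1, against 22.1%.

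**Figure D1:**
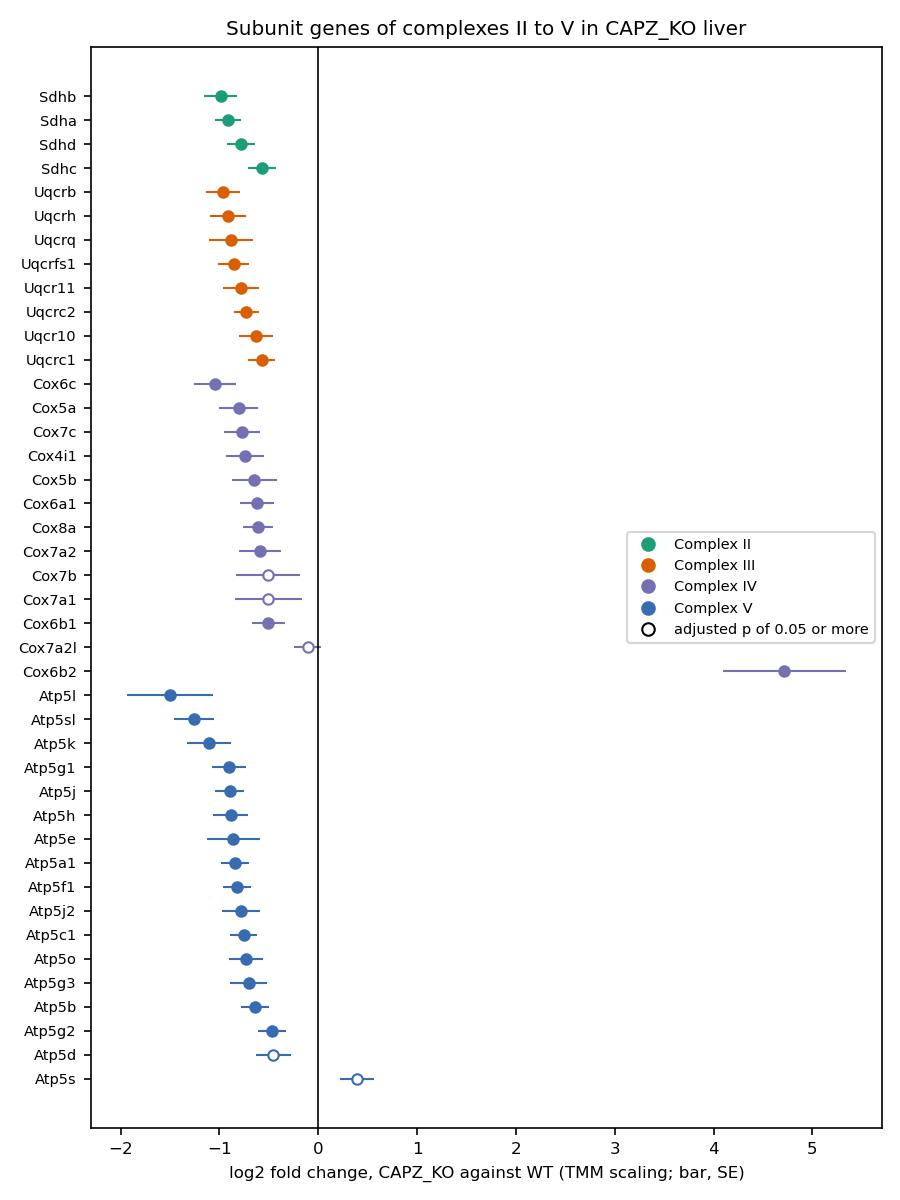
Log2 fold changes of the 42 tested members, CAPZ_KO against WT after TMM scaling, with bars of 1 SE and filled points at an adjusted p under 0.05. 40 of 42 points lie below 0, with Cox6b2 at 4.72 and Atp5s at 0.39 above it; with library sizes alone 29 lie below 0.

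These directions are relative to the bulk of the genes, since the scaling sets the zero. The WT libraries had TMM factors between 0.774 and 0.847, and those of CAPZ_KO lay between 1.18 and 1.33. With library sizes alone, the median of all tested genes moved to 0.62 and the median of the members to −0.14, which is −0.76 below it. On that scale 1 member was lower, against 5.39% of all tested genes, and 3 were higher, against 59.0%. The 1 lower was Atp5sl at −0.65, which is not a structural subunit of complex V. The higher ones were Cox6b2 at 5.31, Atp5s, also no structural subunit, at 1.01 and Cox7a2l at 0.51. The median member stood at the percentile 11.9 of all fold changes with TMM and at 11.95 with library sizes alone.

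As a share of all counts, the 47 members together took 0.996 ± 0.139% (SD, n = 4) in WT and 0.916 ± 0.0456% (SD, n = 4) in CAPZ_KO. The WT libraries held 1.19, 0.864, 0.931 and 1.00%, and the CAPZ_KO libraries 0.860, 0.955, 0.899 and 0.952%. These shares overlapped between the groups. After TMM scaling the same sum stood at 12409 ± 2014 CPM (SD, n = 4) in WT and 7408 ± 746 CPM (SD, n = 4) in CAPZ_KO, and the groups did not overlap. The CAPZ_KO mean was 55.8% of the WT mean for complex II, 58.1% for complex III, 63.7% for complex IV and 59.5% for complex V. These WT means include WT 1, which held 15340 CPM over the 47 members, where the other WT libraries held 10754 to 11866 CPM. Without WT 1 the median log2 fold changes of complexes II, III, IV and V were −0.84, −0.68, −0.38 and −0.70.

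**Figure D2:**
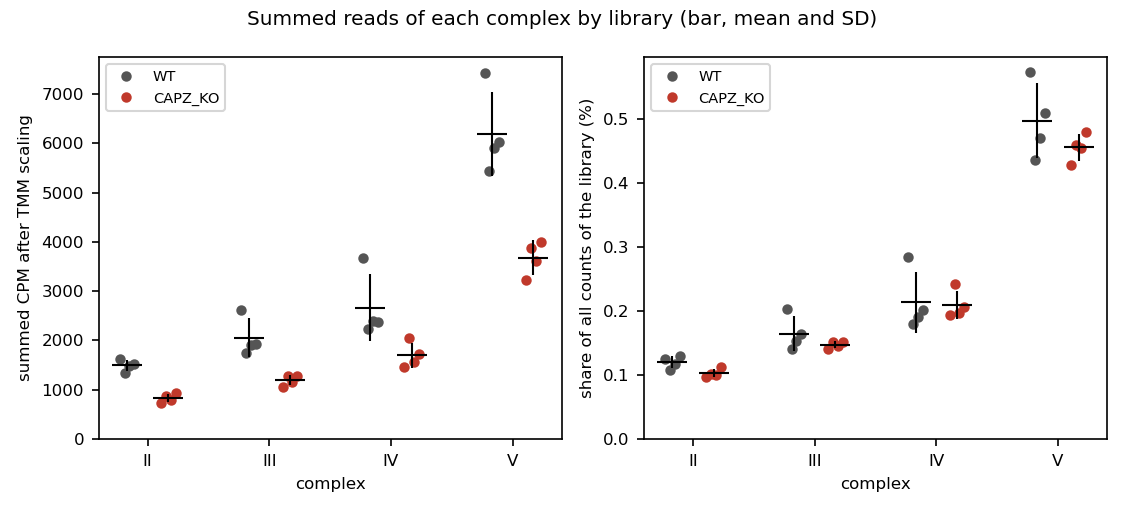
Summed level of the members of each complex in each library, as CPM after TMM scaling (left) and as a share of all counts of the library (right), with the mean and SD of 4 libraries. On the left every CAPZ_KO library lies below every WT library in all 4 complexes, while on the right the groups overlap in each complex, and WT 1 is the highest library of complexes III, IV and V.

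In complex II, the catalytic subunits and the membrane anchors all fell. Sdha, the flavoprotein that oxidises succinate, stood at 626, 564, 640 and 570 CPM in WT and at 302, 300, 313 and 359 CPM in CAPZ_KO. The highest CAPZ_KO library lay well under the lowest WT library, and the log2 fold change was −0.91 ± 0.130 (SE, adjusted p = 0.000448). Sdhb, the iron-sulfur subunit that takes the electrons on, stood at 379, 272, 299 and 366 CPM in WT and at 138, 187, 150 and 189 CPM in CAPZ_KO. Its groups did not overlap either, and its log2 fold change was −0.99 ± 0.166 (SE, adjusted p = 0.00115).

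The membrane anchors of complex II, which help to form the ubiquinone site, fell as well. Sdhd stood at 348, 310, 329 and 361 CPM in WT and at 156, 216, 192 and 218 CPM in CAPZ_KO, which is a log2 fold change of −0.78 ± 0.143 (SE, adjusted p = 0.00188). The WT libraries were close together and all above the CAPZ_KO libraries. Sdhc, the other anchor, had a log2 fold change of −0.57 ± 0.141 (SE, adjusted p = 0.00899). The differences between subunits were not tested. Sdha lies on chromosome 13 (74322254 to 74350280), Sdhb on chromosome 4 (140961203 to 140979193), Sdhc on chromosome 1 (171127165 to 171150603) and Sdhd on chromosome 9 (50596357 to 50603812; GRCm38, GENCODE vM21).

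In complex III, the 8 members fell by 0.57 to 0.96 on the log2 scale. Uqcrb, a small subunit near the ubiquinone site, stood at 224, 134, 143 and 156 CPM in WT and at 82.9, 89.7, 84.4 and 79.9 CPM in CAPZ_KO. The CAPZ_KO libraries were nearly alike, WT 1 was the highest, and the log2 fold change was −0.96 ± 0.168 (SE, adjusted p = 0.00143). Exons of Uqcrb and of Gm10767 overlap on opposite strands.

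Uqcrc2, which with Uqcrc1 forms the core proteins on the matrix side, stood at 339, 332, 331 and 365 CPM in WT and at 177, 213, 206 and 229 CPM in CAPZ_KO. WT 1 was not the highest library here, the groups lay far apart, and the log2 fold change was −0.73 ± 0.127 (SE, adjusted p = 0.00146). Part of the exons of Uqcrc2 overlaps Pdzd9 on the opposite strand. Uqcrfs1, the Rieske iron-sulfur protein that moves between the electron donors and acceptors of the complex, stood at 364, 240, 269 and 293 CPM in WT and at 145, 161, 152 and 186 CPM in CAPZ_KO. All CAPZ_KO libraries lay below all WT libraries, with a log2 fold change of −0.86 ± 0.158 (SE, adjusted p = 0.002).

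The other members of complex III fell too. Uqcrh, the hinge protein that docks cytochrome c1, had a log2 fold change of −0.91, and Uqcrq, Uqcr11 and Uqcr10, small subunits of the membrane part, had −0.88, −0.78 and −0.63. Uqcrc1 had −0.57, the smallest fall of the complex. Cytochrome c1 itself, Cyc1, is not matched by the naming rule and fell as well, from 260 ± 35.8 (SD, n = 4) to 143 ± 19.4 CPM (SD, n = 4; log2 fold change −0.86 ± 0.151, SE, adjusted p = 0.0015). Cycs, the mobile carrier cytochrome c, had a log2 fold change of −0.30 (adjusted p = 0.201).

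Complex IV was the most mixed group, with 9 members lower, 1 higher and 3 that did not pass among 13 tested. Of the 10 isoforms used in most tissues, 9 fell. Cox6c, a small subunit of the membrane part, stood at 275, 132, 190 and 170 CPM in WT and at 86.0, 107, 85.6 and 93.1 CPM in CAPZ_KO. The spread of WT was wide, from WT 2 to WT 1, but no library overlapped with CAPZ_KO, and the log2 fold change was −1.04 ± 0.208 (SE, adjusted p = 0.003). Exons of Cox6c overlap Vps13b on the opposite strand.

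Cox7c, another small membrane subunit, stood at 125, 77.7, 70.8 and 81.4 CPM in WT and at 48.1, 59.3, 50.6 and 49.3 CPM in CAPZ_KO, a log2 fold change of −0.78 ± 0.181 (SE, adjusted p = 0.00684). WT 1 was again far above the other WT libraries, which were all above CAPZ_KO. Cox4i1, the isoform of subunit 4 in most tissues, stood at 801, 496, 474 and 495 CPM in WT and at 303, 391.5, 312 and 349 CPM in CAPZ_KO. Its exons overlap Emc8 on the opposite strand. The groups did not overlap, and the log2 fold change was −0.74 ± 0.195 (SE, adjusted p = 0.0123).

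Cox6a1 stood at 402, 250, 278 and 258 CPM in WT and at 166, 209, 196 and 203 CPM in CAPZ_KO, and Cox8a at 265, 188, 211 and 206 against 119, 155, 140 and 156 CPM. Both, small subunits that have separate muscle isoforms, lay lower in every CAPZ_KO library, with log2 fold changes of −0.62 (adjusted p = 0.0171) and −0.61 (adjusted p = 0.00907). Cox5a and Cox5b, the matrix-side subunits, had log2 fold changes of −0.80 and −0.65, the second with an adjusted p of 0.0435. Without WT 1 the log2 fold change of Cox5b was −0.38 (adjusted p = 0.0686), and the adjusted p of Cox5b also rose above 0.05 without WT 3, CAPZ_KO 1, CAPZ_KO 3 or CAPZ_KO 4 (0.0533 to 0.0974). The median of complex IV moved from −0.61 to −0.38 without WT 1.

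**Figure D3:**
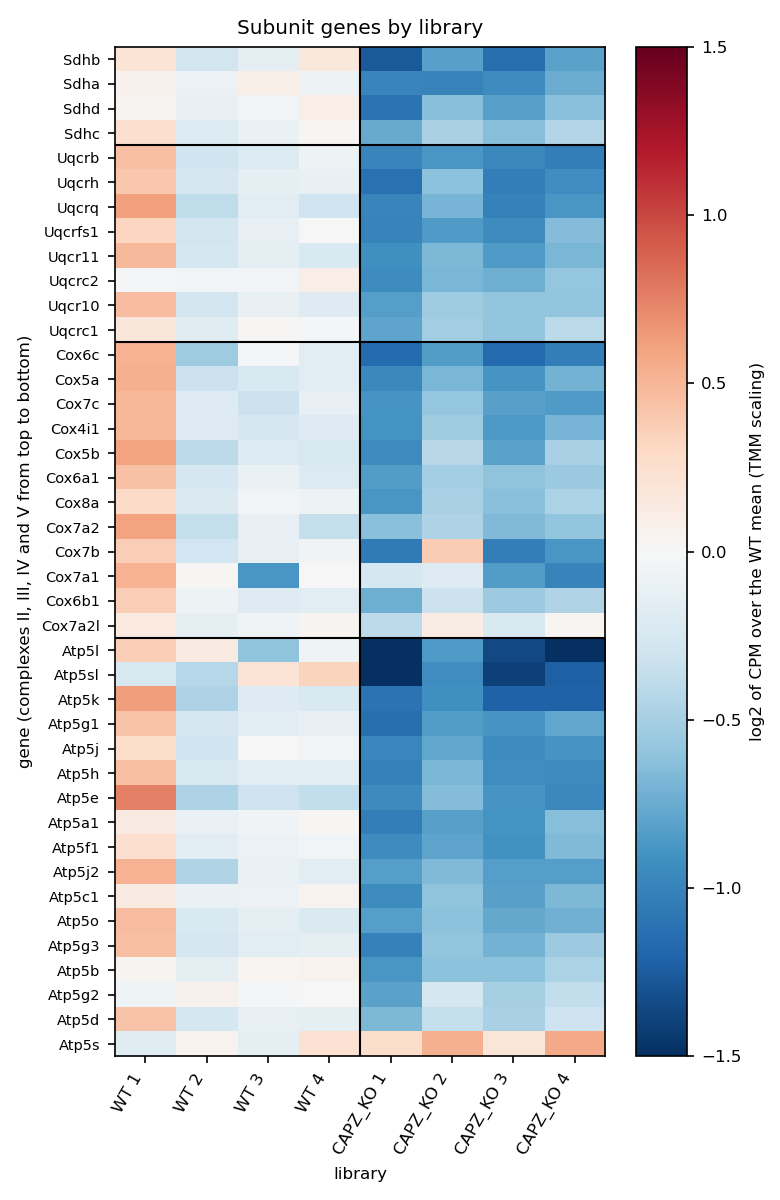
Level of 41 tested members in each of the 8 libraries, as log2 of CPM after TMM scaling over the WT mean. Colours run from blue (lower) to red (higher), and Cox6b2 is left out because 1 WT library has no count. WT 1 is the reddest WT column for most genes, Cox7b is high in CAPZ_KO 2 alone among the CAPZ_KO libraries, and Atp5s, which did not pass the test, is the gene on the red side in CAPZ_KO.

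The member that rose was Cox6b2, known as the testis isoform of subunit 6b. It had 2, 1, 1 and 0 counts in WT and 60, 63, 26 and 24 in CAPZ_KO, which is 0.0878 ± 0.0904 and 2.16 ± 0.907 CPM (SD, n = 4 each). The groups did not overlap, and the ratio of the CAPZ_KO to the WT level was 29.8, with an interval of 11.4 to 111 at 95% that covers counting error only. The fitted log2 fold change was 4.72 ± 0.624 (SE, adjusted p = 0.000309), and it passed in every alternative in which the gene was tested.

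Cox6b1, the isoform of most tissues, stood at 364, 268, 247 and 252 CPM in WT and at 170, 227, 194 and 207 CPM in CAPZ_KO. Every CAPZ_KO library lay below every WT library, and the log2 fold change was −0.50 ± 0.163 (SE, adjusted p = 0.0312). Without CAPZ_KO 1, CAPZ_KO 3 or CAPZ_KO 4 its adjusted p was 0.0703, 0.0669 and 0.0516. Of the reads of both isoforms, Cox6b2 took 0.0588, 0.0245, 0.0287 and 0% in WT and 1.57, 1.36, 0.803 and 0.591% in CAPZ_KO. Thus Cox6b1 supplied nearly all reads in both groups. The 2 coding sequences are printed because reads of the rare isoform are only counted apart if the sequences differ. They share 158 of 260 aligned bases (60.8%) and 47 of 86 aligned residues, and capitals mark the bases that differ (GENCODE vM21 transcripts, GRCm38).
Cox6b1: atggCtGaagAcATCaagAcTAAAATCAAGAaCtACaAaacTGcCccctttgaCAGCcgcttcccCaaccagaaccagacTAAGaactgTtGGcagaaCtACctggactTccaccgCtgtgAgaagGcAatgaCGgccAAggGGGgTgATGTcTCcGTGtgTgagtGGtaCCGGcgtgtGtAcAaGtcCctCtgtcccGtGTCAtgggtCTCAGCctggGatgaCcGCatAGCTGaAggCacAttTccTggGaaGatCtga
Cox6b2: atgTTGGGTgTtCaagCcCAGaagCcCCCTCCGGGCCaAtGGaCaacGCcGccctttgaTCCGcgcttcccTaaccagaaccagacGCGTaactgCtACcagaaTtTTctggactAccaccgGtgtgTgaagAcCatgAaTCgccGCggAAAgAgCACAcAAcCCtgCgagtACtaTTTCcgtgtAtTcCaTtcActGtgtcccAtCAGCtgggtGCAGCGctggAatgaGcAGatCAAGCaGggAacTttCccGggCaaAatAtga
Cox6b1 lies on chromosome 7 from 30616861 to 30626151 and Cox6b2 on the same chromosome from 4751792 to 4753094, both on the minus strand.

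The Cox7a family includes Cox7a1 and Cox7a2, forms of a subunit in which complex IV of heart and muscle differs from that of liver. Cox7a2, the liver form, stood at 317, 164, 192 and 163 CPM in WT and at 135, 151, 131 and 139 CPM in CAPZ_KO, with a log2 fold change of −0.59 ± 0.211 (SE, adjusted p = 0.0475). The groups did not overlap, but WT 2 and WT 4 lay only a little above CAPZ_KO 2, and the call was lost without any single library other than WT 2 and WT 4 (adjusted p of up to 0.0947, without CAPZ_KO 3). Without WT 1 the log2 fold change was −0.32 (adjusted p = 0.0526). Cox7a2l, another gene named in this family, was taken into complex IV by symbol alone. It is not among the 10 isoforms used in most tissues counted above. Cox7a2l stood at 82.7, 67.5, 72.3 and 77.3 CPM in WT and at 56.9, 81.3, 64.0 and 76.4 CPM in CAPZ_KO. These groups overlapped, with a log2 fold change of −0.11 ± 0.139 (SE, adjusted p = 0.569).

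Cox7a1, the heart and muscle form, was near the limit of detection, with 2.79, 1.97, 1.07 and 1.95 CPM in WT and 1.62, 1.69, 1.09 and 0.971 CPM in CAPZ_KO. The groups overlapped (log2 fold change −0.51 ± 0.338, SE, adjusted p = 0.255). Within the family, Cox7a2l took 27.2 ± 4.83% of reads in WT and 33.0 ± 2.68% in CAPZ_KO (SD, n = 4 each), Cox7a2 took 72.1 ± 4.89% and 66.3 ± 2.56%, and Cox7a1 0.686 ± 0.201% and 0.642 ± 0.173%. By an exact two-sided permutation test over the 70 arrangements of 4 against 4 libraries, p was 0.0571 for Cox7a2l, 0.0571 for Cox7a2 and 0.8 for Cox7a1. Among the 7 isoform shares tested, the Benjamini-Hochberg adjusted values were 0.08, 0.08 and 0.8.

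Cox7b, a small subunit encoded on the X chromosome (106015700 to 106022450), stood at 342, 217, 243 and 255 CPM in WT and at 127, 343, 129 and 145 CPM in CAPZ_KO. CAPZ_KO 2 lay above all WT libraries while the other 3 lay below them. With all libraries the log2 fold change was −0.51 ± 0.324 (SE, adjusted p = 0.236), and without CAPZ_KO 2 it was −1.02 (adjusted p = 0.00332). The same library held most counts of the muscle isoforms, with 36 of the 49 CAPZ_KO counts of Cox6a2 and 15 of the 16 of Cox8b. Beside this, 8 striated muscle markers summed to 52.3 CPM in CAPZ_KO 2 and to 0.710 to 2.66 CPM in the other 7 libraries, and the part of this in the Cox7b level was not tested.

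The 5 members that did not pass the filter on low counts are all complex IV isoforms of restricted tissues. Cox4i2, the lung isoform of subunit 4, had 5 counts over the WT libraries and 12 over CAPZ_KO, and Cox6a2 had 5 in WT. Cox8b had 0 in WT, and the testis isoforms Cox7b2 and Cox8c had no count in any library. With a filter of only 1 count over all libraries, the 3 members with counts had adjusted p of 0.612 (Cox4i2), 0.0767 (Cox6a2) and 0.212 (Cox8b) by edgeR, and most of the Cox6a2 and Cox8b counts came from CAPZ_KO 2.

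In complex V, all 4 genes of the peripheral stalk, all 3 of the membrane ring and 4 of 5 of the catalytic head and central stalk fell. Atp5a1, the alpha subunit of the head, stood at 1466, 1245, 1287 and 1359 CPM in WT and at 651, 762, 720 and 859 CPM in CAPZ_KO. The groups lay far apart, and the log2 fold change was −0.84 ± 0.144 (SE, adjusted p = 0.00134). Exons of Atp5a1 overlap Haus1 on the opposite strand. Atp5b, the catalytic beta subunit, fell by 0.64 on the log2 scale (adjusted p = 0.00542), from 1607 ± 94.0 to 1033 ± 114 CPM (SD, n = 4 each).

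Atp5c1, the rotating gamma subunit, had a log2 fold change of −0.75, and Atp5e, the epsilon subunit, had −0.86. The adjusted p of Atp5e was 0.0255, and it was 0.0567, 0.055 and 0.0556 without CAPZ_KO 1, CAPZ_KO 3 and CAPZ_KO 4. Without WT 1, which held 419 CPM of Atp5e against 179 to 199 CPM in the other WT libraries, its log2 fold change was −0.49 (adjusted p = 0.012). Atp5d, the delta subunit of the central stalk, had a log2 fold change of −0.45 (adjusted p = 0.0602), though no CAPZ_KO library reached a WT library. Without WT 2 the adjusted p was 0.0474, and without WT 1, which was high for this gene, the log2 fold change was −0.29 (adjusted p = 0.106).

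Of the peripheral stalk, which holds the head still against the turning ring, Atp5j had the smallest p. It stood at 309, 207, 254 and 248 CPM in WT and at 129, 149, 132 and 137 CPM in CAPZ_KO. The CAPZ_KO libraries were nearly alike and all below WT, and the log2 fold change was −0.90 ± 0.144 (SE, adjusted p = 0.000895). Exons of Atp5j overlap those of Gabpa, a subunit of the GABP factor, on the opposite strand, and Gabpa fell too. Atp5h, Atp5f1 (whose exons overlap Wdr77 on the opposite strand) and Atp5o, the other stalk subunits, had log2 fold changes of −0.89, −0.82 and −0.73.

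Among the small membrane subunits, which help to join ATP synthases into dimers, Atp5k and Atp5j2 had log2 fold changes of −1.10 and −0.78. Atp5l had only 10 to 18 counts per WT library and 3 to 12 per CAPZ_KO library, about 1 CPM, with a log2 fold change of −1.496 ± 0.436 (SE, adjusted p = 0.0197). How reads that match several copies of a gene were counted is not given in the sources used here, and its value is uncertain for that reason.

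Subunit c, which forms the ring, is made from 3 genes whose mature protein is the same. Atp5g1 stood at 185, 115, 123 and 126 CPM in WT and at 62.8, 76.8, 74.6 and 79.9 CPM in CAPZ_KO, with no overlap (log2 fold change −0.90 ± 0.168, SE, adjusted p = 0.00207). Atp5g2 stood at 20.5, 22.5, 21.3 and 21.6 CPM in WT and at 12.4, 17.98, 15.2 and 16.6 CPM in CAPZ_KO (log2 fold change −0.47 ± 0.138, SE, adjusted p = 0.0206). Atp5g3 stood at 765, 471, 499 and 508 CPM in WT and at 278, 372, 343 and 383 CPM in CAPZ_KO, again without overlap (log2 fold change −0.70 ± 0.189, SE, adjusted p = 0.0137).

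The coding ends of the 3 genes are printed because the mature subunit comes from them and their letters decide whether reads can be told apart. The last 78 codons before the stop, 234 bases, translate to the same residues, while 63 of the 234 positions differ between the genes and are in capitals. Atp5g1 and Atp5g2 share 198 of the bases, Atp5g1 and Atp5g3 184, and Atp5g2 and Atp5g3 181 (GENCODE vM21 transcripts, GRCm38).
Atp5g1: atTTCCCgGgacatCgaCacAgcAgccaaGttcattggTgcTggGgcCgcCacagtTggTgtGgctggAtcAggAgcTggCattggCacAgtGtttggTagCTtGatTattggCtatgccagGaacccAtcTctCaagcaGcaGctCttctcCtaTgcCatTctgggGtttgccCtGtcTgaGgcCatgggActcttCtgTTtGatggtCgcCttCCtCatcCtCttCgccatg
Atp5g2: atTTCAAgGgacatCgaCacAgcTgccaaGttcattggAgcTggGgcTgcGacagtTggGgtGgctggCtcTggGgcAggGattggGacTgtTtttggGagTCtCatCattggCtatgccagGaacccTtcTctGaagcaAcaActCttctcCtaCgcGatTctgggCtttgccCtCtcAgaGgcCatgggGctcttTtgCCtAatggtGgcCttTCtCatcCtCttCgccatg
Atp5g3: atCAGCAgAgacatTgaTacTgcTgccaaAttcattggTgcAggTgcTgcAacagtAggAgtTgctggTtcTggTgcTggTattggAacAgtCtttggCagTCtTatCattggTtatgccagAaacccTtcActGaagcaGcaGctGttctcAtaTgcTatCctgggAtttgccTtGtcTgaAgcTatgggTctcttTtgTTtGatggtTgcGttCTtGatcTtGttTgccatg
Atp5g1 lies on chromosome 11 (96068852 to 96075670), Atp5g2 on chromosome 15 (102662864 to 102672352) and Atp5g3 on chromosome 2 (73908447 to 73911326).

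Of the reads of the ring genes, Atp5g1 took 19.1, 18.9, 19.1 and 19.3% in WT and 17.8, 16.4, 17.2 and 16.7% in CAPZ_KO. Every CAPZ_KO library was below every WT library, with p = 0.0286 by the exact two-sided permutation test, the smallest that 4 against 4 allows, and 0.08 after adjustment. Atp5g3 took 77.8 ± 0.659% and 79.4 ± 0.528% (SD, n = 4 each; exact permutation p = 0.0571, adjusted 0.08), and Atp5g2 3.10 ± 0.687% and 3.58 ± 0.182% (p = 0.229, adjusted 0.267). The Cox6b2 share of its family, 0.0280% and 1.08% on average, gave p = 0.0286 by the same exact test and 0.08 adjusted. None of the 7 shares passed an adjusted 0.05, and 2 of 7 had a raw p under 0.05. These shares are of reads, not corrected for gene length, and do not depend on the scaling between libraries.

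Atp5sl and Atp5s only share the name of the complex V genes. Atp5sl, whose protein is known as a factor for the assembly of complex I, stood at 32.7, 28.7, 44.5 and 48.9 CPM in WT and at 13.4, 20.3, 14.6 and 16.5 CPM in CAPZ_KO. All CAPZ_KO libraries lay below WT, with a log2 fold change of −1.26 ± 0.200 (SE, adjusted p = 0.00085). Atp5s, known as coupling factor B, had 5.68 to 7.59 CPM in WT and 7.32 to 9.61 CPM in CAPZ_KO, with overlap and a log2 fold change of 0.39 ± 0.171 (SE, adjusted p = 0.0894). With library sizes alone it passed, at 1.01 (adjusted p = 0.000835).

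**Figure D4:**
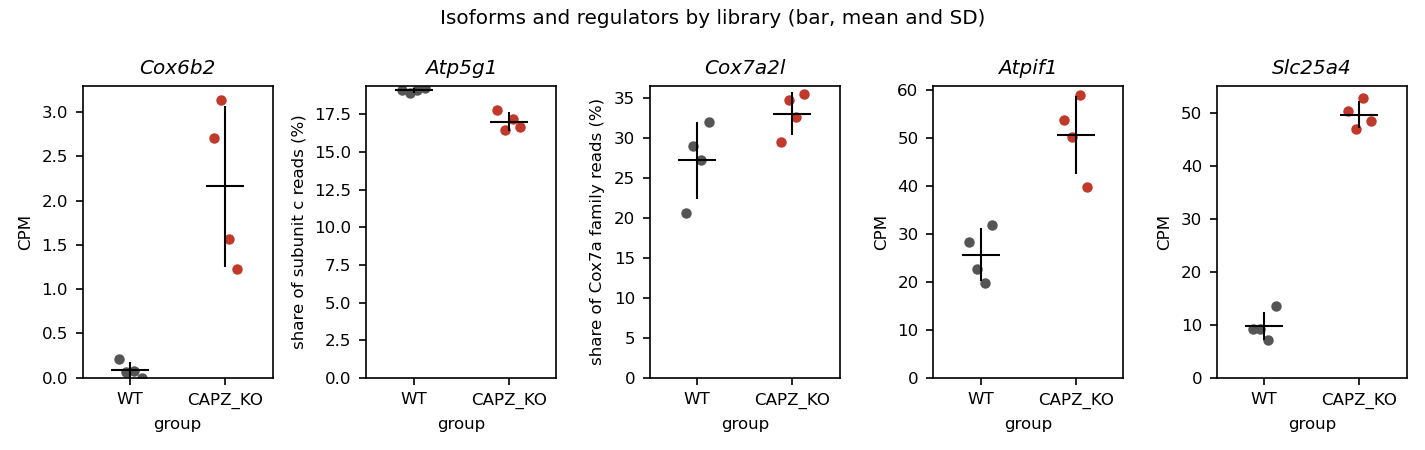
Values by library, with the mean and SD of 4 libraries, of Cox6b2, Atpif1 and Slc25a4 in CPM after TMM scaling, of Atp5g1 as a share of subunit c reads and of Cox7a2l as a share of Cox7a family reads. The groups do not overlap for Cox6b2, Atp5g1, Atpif1 and Slc25a4, and they overlap for Cox7a2l.

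Proteins that build or restrain the complexes were listed apart from the members. Of 36 tested assembly factors and inhibitors of complexes II to V, 13 fell (36.1%, against 19.0% of all tested genes) and 1 rose. Their median log2 fold change was −0.33. Of the 42 tested members, Atp5s and Atp5sl included, 36 fell and 1 rose, with a median of −0.76. The difference between these lists was not tested. The 4 factors of complex II had adjusted p between 0.141 and 0.292 and a median of −0.28. Of complex III, 3 of 6 fell, which were Uqcc1, Uqcc3 and Bcs1l at −0.60, −0.68 and −0.43. Of complex IV, 8 of 21 fell, with Cox11, which delivers copper, at −0.77, Surf1 at −0.68 and Cox20 at −0.78.

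The gene that rose in this list was Atpif1, the inhibitor of ATP hydrolysis by complex V. It stood at 28.4, 22.7, 19.7 and 31.9 CPM in WT and at 53.8, 50.3, 58.9 and 39.8 CPM in CAPZ_KO. Every CAPZ_KO library lay above every WT library, with a log2 fold change of 0.98 ± 0.180 (SE, adjusted p = 0.00192). Usmg5, a small protein of the ATP synthase outside the naming rule, is counted in this list and had −0.87 (adjusted p = 0.00362). Atpaf2, which assembles the head of the ATP synthase, had −0.45 (adjusted p = 0.0242).

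Genes with symbols that start with Nduf stand for complex I, the entry point for electrons from NADH. They were taken by name alone and are not all subunits, with the assembly factors Ndufaf1 to Ndufaf7 among them. The 44 tested had a median log2 fold change of −0.71, and 34 of them fell. In this and the other lists of mitochondrial genes that follow, the counts stand against 19.0% lower and 22.4% higher over all tested genes. Among regulators of mitochondrial gene expression, 7 of 12 fell, with a median of −0.67. Tfam, which packs and transcribes mitochondrial DNA, stood at 66.5, 61.1, 57.1 and 73.7 CPM in WT and at 35.6, 37.0, 39.2 and 35.3 CPM in CAPZ_KO (log2 fold change −0.81 ± 0.117, SE, adjusted p = 0.00047). These groups lay far apart. Tfb2m, a mitochondrial transcription factor, and Gabpa had −0.89 (adjusted p = 0.00455) and −0.83 (adjusted p = 0.00588), while Nrf1 had −0.14 (adjusted p = 0.535) and Esrra −0.22 (adjusted p = 0.268). The other regulators that fell were Ppargc1b at −1.25 (adjusted p = 0.0159), Ppargc1a at −1.23 (adjusted p = 0.0357), Tfb1m at −0.79 (adjusted p = 0.00819) and Yy1 at −0.54 (adjusted p = 0.00818). The groups overlapped for Ppargc1a, and 0 of the 12 regulators rose.

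Of 13 enzymes of the tricarboxylic acid cycle other than complex II, 6 fell, with a median of −0.38. Fh1, which uses the fumarate that complex II makes, had −1.11 ± 0.147 (SE, adjusted p = 0.000299), Idh3b −0.84 and Sucla2, which makes succinate, −0.84. Citrate synthase, Cs, had −0.23 (adjusted p = 0.325). Of 16 carriers, porins and import genes, 6 fell and 1 rose, with a median of −0.27. The 1 that rose was Slc25a4, known as the ADP/ATP carrier of heart and muscle, at 9.22, 9.15, 7.10 and 13.5 CPM in WT and at 50.3, 46.9, 52.7 and 48.5 CPM in CAPZ_KO (log2 fold change 2.35 ± 0.185, SE, adjusted p = 2.13e-05). The groups lay far apart, and CAPZ_KO 2, the library with the striated muscle counts, was the lowest of CAPZ_KO. Which cells these Slc25a4 reads came from was not tested. Tomm70a, an import receptor, and Chchd3, a protein of the cristae junctions, had −0.76 and −0.67. Slc25a5, the ADP/ATP carrier of most tissues, had −0.17 (adjusted p = 0.468).

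**Figure D5:**
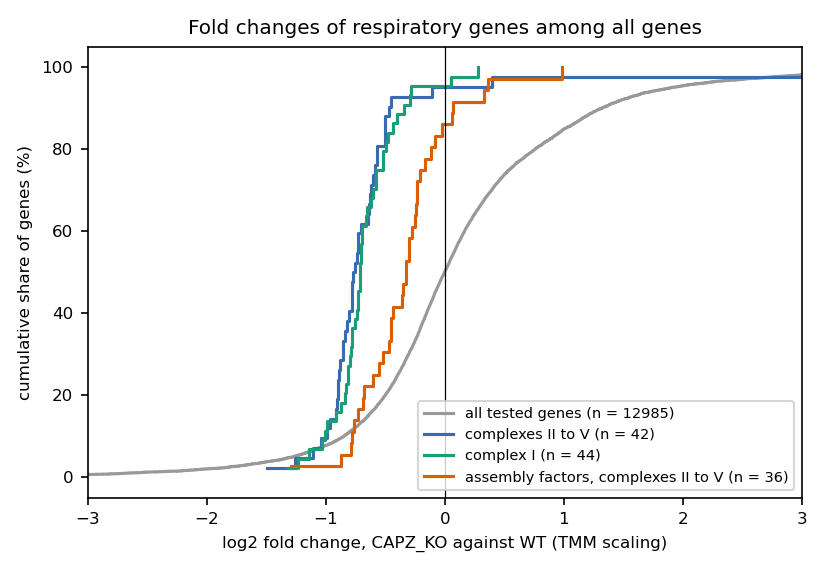
Cumulative share of genes by log2 fold change, CAPZ_KO against WT after TMM scaling, for all 12985 tested genes and the lists. The lists are 42 members of complexes II to V, 44 genes named Nduf (complex I) and 36 assembly factors and inhibitors. The curves of complexes II to V and of complex I run together, with medians of −0.76 and −0.71. The assembly factors and inhibitors lie between them and all genes, at −0.33. With library sizes alone the median of all genes is 0.62 and that of the members −0.14.

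The excess of WT 1 over the other WT libraries was larger in short transcripts. For the 42 tested members, the median log2 ratio of WT 1 to the mean of the other WT libraries was 0.59. Transcript length was known for 41 of them. The median was 0.65 in the 30 members with transcripts up to 1 kb and 0.19 in the longer ones. Over the 12224 tested genes with a known length it was 0.24 up to 1 kb and −0.06 above. Without WT 1, 34 members were lower, all among the 36, 1 was higher, and the median of the members was −0.57. Libraries WT 4 and CAPZ_KO 4 had more counts of Xist than of Y-linked genes, while the other 6 had the reverse, and without both 33 members were lower, 1 was higher and the median was −0.81. Without CAPZ_KO 2, 36 were lower and 1 higher.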

How the data were processed

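Poly(A) RNA of perfused liver was sequenced in 8 libraries, 4 per group. The authors deposited raw read counts per gene symbol, with no scaling. Per the submitters' processing notes, the tools were STAR 2.5.3a, featureCounts, bcl2fastq, edgeR and R 3.3.1, in no stated order, with the build mm10. The sources used here do not give the gene annotation, the strand setting or how multi-mapping reads were treated, so counts of overlapping genes and of close copies are uncertain.

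Genes were filtered by filterByExpr (minimum count 10, minimum total 15), scaled by TMM and tested by the edgeR 4.0.16 quasi-likelihood test with robust dispersion and no covariate (R 4.3.3), and p-values were Benjamini-Hochberg adjusted over the 12985 genes tested, with a threshold of 0.05. Every adjusted p of a gene comes from this test unless another is named. Isoform shares were compared by exact permutation tests. Positions and coding sequences came from GENCODE vM21 (GRCm38), and promoters from RefSeq (GRCm38.p6).

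The members and lists were chosen with earlier results of these data known. Values in every library were given for up to 3 members of each complex with the smallest p, members called against the direction of their complex, and isoform families, and up to 3 genes of the other pathway lists were named. Ppargc1a, Ppargc1b, Tfb1m, Yy1, Nrf1, Esrra, Cs and Slc25a5 were named after their values were seen. On counts simulated for the 12985 genes of CAPZ_KO against WT, the test called 4 of 50 genes with a 1.5-fold change and 24 of 50 with a 2-fold change. It called 44 of 50 with a 4-fold change, 48 of 50 with an 8-fold change and 7 of 12785 unchanged genes. In the data 41.4% of the tested genes were called, far more than were changed in the simulation. The adjustment is less strict when more genes change, so these rates do not give the power in the data. The chi-square per degree of freedom between libraries of the same group was 25.2 to 144, so none was counted as a duplicate. The alternatives were DESeq2 1.42.0 size factors, library sizes alone, upper quartile scaling, 2 other filters, the DESeq2 and limma-voom (limma 3.58.1) tests, the replicate number as a term, a threshold of 0.01, and leaving out libraries.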

Additional observations from a re-analysis of the deposited data

Results flagged for a closer look

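In 17 of 108 groups of 4 libraries (15.7%), 1 library lay apart from the other 3 by more than 0.829 of the group's range, where chance flags about 1 in 20 groups. These groups are not independent, since the members share the same libraries. In 13 of the 17 it was WT 1 that lay above the other WT libraries. WT 1 held 219.5 CPM of Uqcr11, 566 of Uqcrq, 801 of Cox4i1, 457 of Cox5a, 242 of Cox5b, 385 of Atp5d, 419 of Atp5e, 185 of Atp5g1, 765 of Atp5g3, 339 of Atp5h and 344 of Atp5o. It also held 3676 CPM summed over complex IV, where the other WT libraries held 2235 to 2387, and its Atp5g3 share of the ring reads was 78.8%, where theirs was 77.4 to 77.6%.

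WT 2 was low for Atp5b, at 1467 CPM against 1637 to 1668 in the other WT libraries. CAPZ_KO 2 was high for Cox7b at 343 CPM (127 to 145 in the other CAPZ_KO libraries), for Atp5j2 at 134 CPM (119 in each of the others), and for the Atp5g2 share of the ring reads at 3.85% (3.45 to 3.52%).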

How the results depend on the processing

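The count of 36 lower members was 32 to 37 when a library was left out, and 33 to 37 under the other scalings, filters and tests except library sizes alone, with 25 at a threshold of 0.01. With library sizes alone 1 member was lower and 3 were higher. The medians were then −0.23, −0.19, 0.0158 and −0.20 for complexes II to V. On that scale 11 members had the opposite sign, which were Sdhc (0.0492), Uqcrc1 (0.0506), Cox6a1 (0.0087), Cox6b1 (0.12), Cox7a1 (0.12), Cox7a2 (0.0481), Cox7a2l (0.51), Cox7b (0.10), Cox8a (0.0158), Atp5d (0.17) and Atp5g2 (0.15), with the median of all genes at 0.62. With a mean of at least 50 counts, which leaves Cox6b2 out, 0 members were higher. The share of higher among all calls was 54.1%, 61.8% with upper quartile scaling and 91.6% with library sizes alone.

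The difference in the Cox7a1 share ranged from −0.14 to 0.0191 percentage points when a library was left out, and was 0.0582 without both libraries with Xist above Y-linked counts; the cause was not tested. With the replicate number as a term (replicate block), 33 members were lower and 1 higher, and Cox5b, Cox6b1 and Cox7a2 lost their call (adjusted p = 0.0825, 0.0541 and 0.0584). The deviations of same-numbered libraries correlated with r of 0.0307 to 0.304, and those of differently numbered libraries with −0.268 to 0.0998. The largest r joined WT 4 and CAPZ_KO 4, both with Xist above Y-linked counts. Of the libraries, 7 of 8 correlated best with their own number, a hint from the data and not from the design. With a filter of only 1 count, 45 members were tested, among them Cox4i2, Cox6a2 and Cox8b, and the counts of 36 lower and 1 higher were the same.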
